A study of Mus musculus with 2 samples.

Results

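The p53 targets that restrain the cell cycle were followed in livers of mice given thioacetamide, a hepatotoxin. The 10 genes were Cdkn1a, Mdm2, Ccng1, Btg2, Gadd45a, Sesn1, Sesn2, Plk2, Zmat3 and Gdf15. They were found as non-control probes whose gene name on both arrays was one of these symbols or a synonym, which gave 11 probes on 20 spots, of 39429 probes on 43020 spots and 22803 named genes in all. Cdkn1a had 2 probes and each other gene had 1.

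Liver RNA was measured on 2 Agilent 2-colour arrays of C57BL/6 mice. The AID transgenic array carried RNA from AID transgenic mice given thioacetamide in their drinking water for 6 months in the Cy5 channel and RNA from untreated AID transgenic mice in the Cy3 channel. The wild-type array carried the same pair from wild-type mice, thioacetamide-treated in Cy5 and untreated in Cy3. AID stands for activation-induced cytidine deaminase, which B cells use to mutate their antibody genes. The promoter that drives the transgene, the age and sex of the mice, and whether RNA was pooled across animals are not stated in the labels.

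Each genotype had 1 array, without a dye swap, so no difference below has a replicate check or a test, and in each ratio dye and treatment cannot be told apart. The arrays shared a slide and a scan. In the wild-type ratios, treatment also cannot be told apart from a difference in sex-linked RNA between the channels, described below. A ratio is Cy5 over Cy3, which is treated over untreated, on the log2 scale. Each ± gives the error that the scanner software assigned to its own log2 ratio of the probe, a technical spot error and not a spread between mice, and it was not computed for the normalized ratio beside it. Levels are normalized log2 intensities and compare 1 probe across channels, never 1 probe with another. A gene was counted as higher or lower when its log2 value reached 1 or -1, that is 2-fold.

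p53 is a transcription factor that accumulates when DNA is damaged or a cell is otherwise stressed. It binds a pair of adjoining decamers in the DNA and switches on genes that stop the cell cycle, repair damage or kill the cell. Mdm2, itself a p53 target, marks p53 for destruction and so closes a feedback loop. In the liver, p21, the product of Cdkn1a, is known for holding back the division of damaged hepatocytes.

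Promoter sequence was read for 12 start-site windows of 9 of the genes from RefSeq (GRCm38.p6), each with 250 bases before and 50 after the start. Zmat3 had no entry. The p53 response element was searched as 2 adjoining decamers without a spacer, with at most 2 letters off and the core C and G of each decamer kept. Because the element is palindromic, 1 search covers both strands. It was found in 2 of the 12 windows (16.7%), against 0.326% of 32851 windows of the same length. The 2 windows that held it, of Cdkn1a and Ccng1, are shown here around the match, which is in capitals, to let the element be read in its setting.
Cdkn1a, chr17:29090888-29090978, plus strand: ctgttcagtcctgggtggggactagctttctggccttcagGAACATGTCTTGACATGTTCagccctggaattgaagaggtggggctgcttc
Ccng1, chr11:40755422-40755521, minus strand: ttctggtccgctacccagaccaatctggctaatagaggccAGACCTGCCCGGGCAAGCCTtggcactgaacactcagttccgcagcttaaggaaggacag

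The Cdkn1a match began 51 bases before the outer start of that gene and fitted 19 of 20 letters. The window of the other Cdkn1a start held neither the element nor a single decamer. The Ccng1 match began 195 bases before its start and also fitted 19 of 20 letters. A single decamer was present in windows of 5 of the 9 genes (Cdkn1a, Mdm2, Ccng1, Gadd45a and Sesn1), or 5 of 12 windows (41.7%), against 2745 of 32851 windows (8.36%). A match describes the letters in these windows and is not evidence of binding.

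Of the 11 probes, 10 were well above background in all 4 channels, so that each gene had at least 1 such probe, and 0 were saturated. Among these 10, raw signal over local background was 7.52 to 108 in treated and 2.63 to 44.8 in untreated AID transgenic liver, and 5.85 to 115 in treated and 4.49 to 63.5 in untreated wild-type liver. Over all non-control spots, 68.8% in the AID transgenic and 68.4% in the wild-type treated channel were well above background, against 53.9% and 56% in the untreated channels. The number of arrays limits the precision.

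Treated liver carried more RNA of most of these genes than untreated liver of the same genotype. In AID transgenic mice, 6 of the 10 genes were at least 2-fold higher after thioacetamide (Cdkn1a, Mdm2, Ccng1, Gadd45a, Plk2 and Zmat3) and 0 were lower, where 1.22% of 16693 genes were higher and 0.947% lower. In wild-type mice, 5 of the 10 were at least 2-fold higher (Cdkn1a, Ccng1, Plk2, Zmat3 and Gdf15) and 0 were lower, where 1.86% of 16663 genes were higher and 1.64% lower. The median log2 ratio of the 10 genes was 1.12 on the AID transgenic array and 0.98 on the wild-type array, beside 0.03 over all genes on each. Ratios were above 0 for 9 of 10 genes on the AID transgenic array, with Sesn1 as the exception, and for 10 of 10 on the wild-type array. In whole liver, a change in the number of cells of a type and a change in RNA per cell cannot be told apart.

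**Figure D1:**
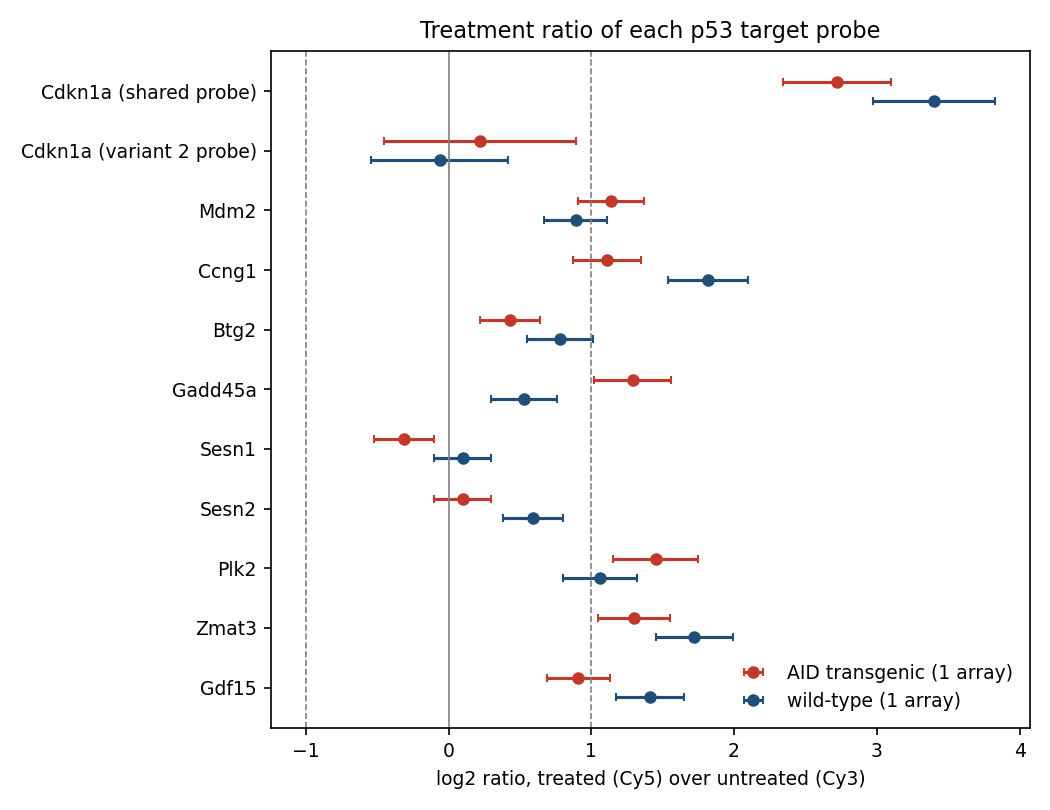
Log2 ratio, treated over untreated, of each of the 11 probes on the AID transgenic and the wild-type array; bars on the points are the error the scanner software gives its ratio and the dashed line marks 2-fold. The shared Cdkn1a probe stands at 2.72 and 3.4, and Sesn1 at -0.31 and 0.1, on the AID transgenic and wild-type arrays.

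Cdkn1a encodes p21, which inhibits cyclin-dependent kinases and binds the replication clamp PCNA. It was read by a shared probe (A_51_P363947), which both transcript variants list, and by a probe of transcript variant 2 alone (A_55_P1986282). Their starts lie 9391 bases apart on the plus strand of chromosome 17, the variant 2 probe at chr17:29227986-29228045 and the shared probe at chr17:29237377-29237436 (mm9, per the file headers). The first 30 of the 60 bases of each are given here, since the gene's reading depends on which is used.
Shared probe, chr17:29237377-29237406: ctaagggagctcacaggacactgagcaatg
Variant 2 probe, chr17:29227986-29228015: aatggagacagagaccccagataattaagg

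The shared Cdkn1a probe had a level of 10.31 in treated and 7.59 in untreated AID transgenic liver, and 11 in treated and 7.6 in untreated wild-type liver. Both treated livers were far above both untreated livers, which were level with each other. Its ratio was 2.72 ± 0.38 on the AID transgenic array, or 6.59-fold, and 3.4 ± 0.43 on the wild-type array. This placed it 8th of 26850 probes by ratio in AID transgenic liver and 16th of 26814 in wild-type liver.

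This probe is printed on 10 spots per array, of which 9 were used on each. Their ratios ran from 2.65 through a median of 2.71 to 2.81 on the AID transgenic array (spot SD 0.06), and from 3.3 through 3.37 to 3.54 on the wild-type array (spot SD 0.09). The spots of the arrays did not overlap in ratio, but how often this held for other probes with 10 spots was not counted. The difference between the arrays was 1.17 times its scanner error. Spots of 1 array share an RNA and a hybridization and are not replicates of a condition. Over the 399 probes printed on 10 spots, the median spot SD was 0.07 on each array.

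The variant 2 probe gave another reading. Its level was 6.46 in treated and 6.24 in untreated AID transgenic liver, and 6.27 in treated and 6.33 in untreated wild-type liver, all close to background. It was well above background in the treated channels alone, with raw signals of 86.6 in treated and 46.6 in untreated AID transgenic liver, and 82.6 in treated and 58.5 in untreated wild-type liver. The measured ratios were 0.22 ± 0.67 and -0.06 ± 0.48 on the AID transgenic and wild-type arrays. Since the untreated value is only a bound, a bound on the difference was computed. It was taken against the lowest signal among probes well above background or the probe's own, whichever was higher. This bound was 1.11-fold in AID transgenic liver as processed here. This bound leaves out the scanner error of 0.67, which belongs to the scanner's own ratio of 1.92. The AID transgenic ratio depended on the processing. It was 0.01 with median centring, 0.67 with an offset of 0, and 1.92 with processed signals or the deposited values. It passed 2-fold in 2 of 6 ways of computing it. The wild-type ratio ran from -0.5 to -0.06 over the same ways. The wild-type bound was under 1 and gives no fold. Averaging both probes gave a gene value of 1.47 in AID transgenic and 1.67 in wild-type liver, which neither probe showed.

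**Figure D2:**
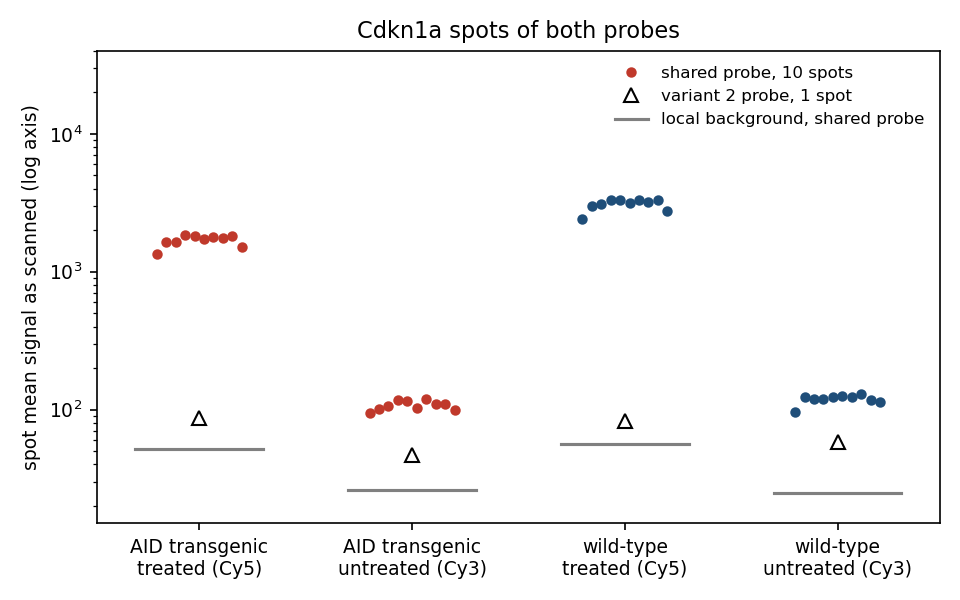
Raw mean signal (log axis) of every Cdkn1a spot in the 4 channels, with treated left of untreated within each genotype; filled points are the 10 spots of the shared probe, triangles the single spot of the variant 2 probe, and grey lines the local background of the shared probe. Shared-probe spots have a median of 1740 in treated and 108 in untreated AID transgenic liver, and 3170 in treated and 121 in untreated wild-type liver, while the variant 2 spot lies between 46.6 and 86.6.

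Of the feedback genes of p53, Ccng1 was at least 2-fold higher in treated liver of both genotypes and Mdm2 in AID transgenic liver, with wild-type Mdm2 short of that. Mdm2, the ubiquitin ligase that targets p53 (A_55_P1975475, chr10:117126010-117126069, minus strand), had a level of 11.95 in treated and 10.82 in untreated AID transgenic liver, and 11.91 in treated and 11.01 in untreated wild-type liver. The treated levels were near each other, and both lay above both untreated levels. The ratio was 1.14 ± 0.23, or 2.2-fold, on the AID transgenic array and 0.89 ± 0.22, or 1.86-fold, on the wild-type array, just inside and just outside the 2-fold threshold.

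Ccng1 encodes cyclin G1, an atypical cyclin that recruits the phosphatase PP2A to Mdm2. Its probe (A_52_P612803, chr11:40562427-40562486, minus strand) had a level of 9.44 in treated and 8.33 in untreated AID transgenic liver, and 10.45 in treated and 8.63 in untreated wild-type liver. Treated wild-type liver was the highest of the 4 by a log2 difference of 1.01 over treated AID transgenic liver. The ratio was 1.11 ± 0.24 (2.16-fold) on the AID transgenic array and 1.82 ± 0.28 (3.53-fold) on the wild-type array. The Ccng1 window shown above holds the p53 element, as a Cdkn1a window does, and its part in the ratio was not tested.

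Among genes that slow division by other routes, Gadd45a and Plk2 had their higher ratio in AID transgenic mice and Btg2 in wild-type mice. Gadd45a, a stress protein that binds PCNA and p21 (A_51_P296608, chr6:66985376-66985435, minus strand), had a level of 8.33 in treated and 7.04 in untreated AID transgenic liver, and 7.85 in treated and 7.32 in untreated wild-type liver. Its highest and lowest levels were both on the AID transgenic array. The ratio was 1.29 ± 0.27 (2.44-fold) there and 0.53 ± 0.23 (1.45-fold) on the wild-type array.

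Plk2, a polo-like kinase with a role in centriole duplication (A_51_P290576, chr13:111190915-111190974, plus strand), had a level of 8.5 in treated and 7.05 in untreated AID transgenic liver, and 8.34 in treated and 7.28 in untreated wild-type liver. Both treated livers were above both untreated ones. The ratio was 1.45 ± 0.3 (2.73-fold) on the AID transgenic array and 1.06 ± 0.26 (2.09-fold) on the wild-type array.

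Btg2, an antiproliferative protein that works with the mRNA deadenylation machinery (A_52_P31543, chr1:135972094-135972153, minus strand), had a level of 8.25 in treated and 7.82 in untreated AID transgenic liver, and 8.26 in treated and 7.48 in untreated wild-type liver. The treated levels were all but equal, and the untreated levels differed. The ratio was 0.43 ± 0.21 (1.35-fold) on the AID transgenic array and 0.78 ± 0.23 (1.72-fold) on the wild-type array, both short of 2-fold.

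The sestrins, which restrain the growth kinase mTORC1, were level between treated and untreated liver or changed by less than 2-fold. Sesn1 (A_55_P1991475, chr10:41628012-41628071, plus strand) had a level of 9.05 in treated and 9.36 in untreated AID transgenic liver, and 9.18 in treated and 9.08 in untreated wild-type liver, with ratios of -0.31 ± 0.21 and 0.1 ± 0.2. Its 4 levels lay close together, and untreated AID transgenic liver was the highest. Sesn2, also a leucine sensor (A_51_P161354, chr4:132048858-132048917, minus strand), had a level of 9.78 in treated and 9.67 in untreated AID transgenic liver, and 10.05 in treated and 9.45 in untreated wild-type liver. The ratio was 0.1 ± 0.2 (1.07-fold) on the AID transgenic array and 0.59 ± 0.21 (1.51-fold) on the wild-type array, so that neither sestrin reached 2-fold in either genotype as processed here. With median centring, wild-type Sesn2 passed it at 1.25.

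Zmat3, a zinc-finger protein that binds RNA (A_51_P415220, chr3:32233831-32233890, minus strand), had a level of 9.19 in treated and 7.88 in untreated AID transgenic liver, and 9.93 in treated and 8.2 in untreated wild-type liver. Each treated liver was well above each untreated one. The ratio was 1.3 ± 0.25 (2.47-fold) on the AID transgenic array and 1.72 ± 0.27 (3.31-fold) on the wild-type array.

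Gdf15 encodes a secreted stress hormone of the TGF-beta family that acts on the brain to reduce food intake. Its probe (A_55_P1960735, chr8:73153293-73153352, minus strand) had a level of 11.48 in treated and 10.58 in untreated AID transgenic liver, and 11.77 in treated and 10.36 in untreated wild-type liver. Treated liver was higher in both genotypes, with the wider gap in wild-type. The ratio was 0.91 ± 0.22 (1.87-fold) on the AID transgenic array, just under 2-fold, and 1.41 ± 0.24 (2.67-fold) on the wild-type array.

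**Figure D3:**
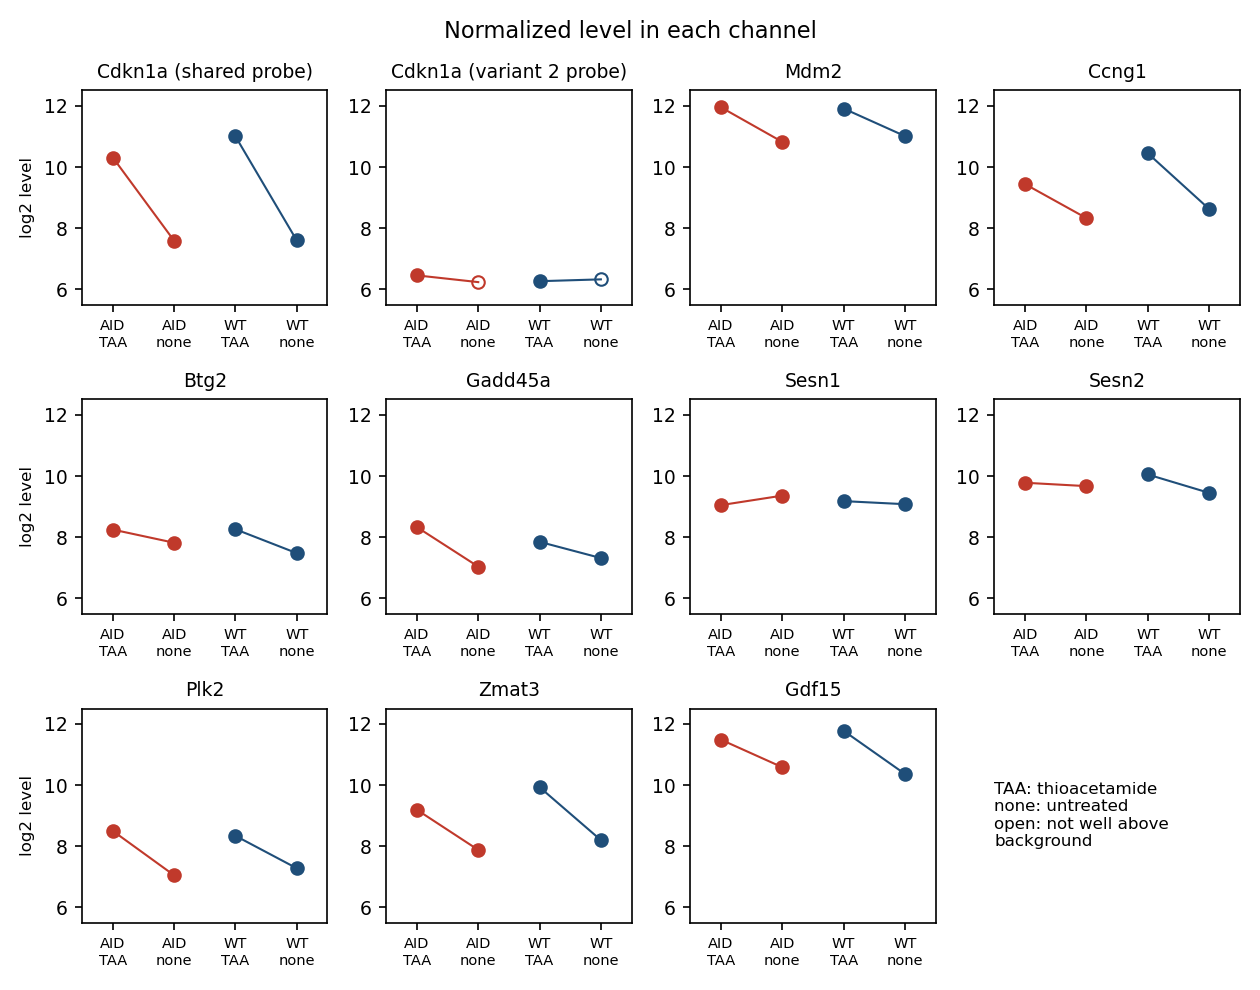
Normalized log2 level of each of the 11 probes in the 4 channels, treated left of untreated within each genotype. For 9 of the 10 bright probes, all but Sesn1, both treated livers lie above both untreated livers, while the Sesn1 levels stay between 9.05 and 9.36; heights are not comparable between probes.

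**Figure D4:**
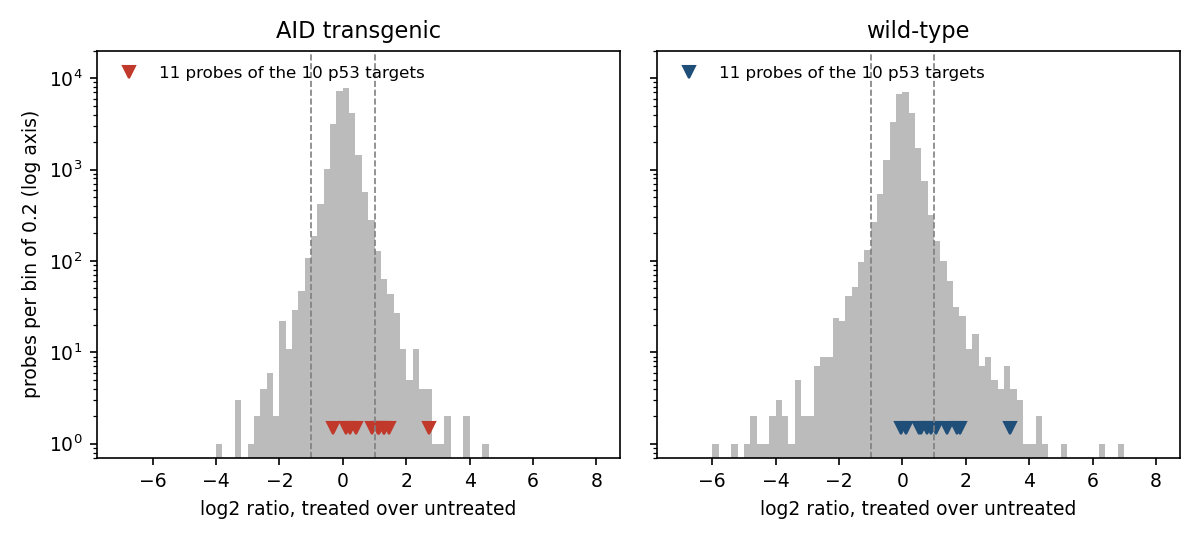
Distribution of the log2 ratio, treated over untreated, of all probes well above background in at least 1 channel (grey bars, log axis; 26850 on the AID transgenic and 26814 on the wild-type array), with the 11 probes as triangles and 2-fold as dashed lines. Of these probes 1.13% on the AID transgenic and 1.7% on the wild-type array are at least 2-fold higher and 0.875% and 1.55% at least 2-fold lower; no triangle lies beyond 2-fold on the lower side.

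Taking the genotypes against each other, 0 of the 10 genes differed 2-fold in their response, where 0.929% of 17107 genes had the higher and 1.05% the lower ratio in AID transgenic mice by that much. The difference of the log2 ratios, AID transgenic minus wild-type, was below 0 for 7 genes and above 0 for Mdm2, Gadd45a and Plk2. Its median was -0.38, beside 0 over all genes. Only the Gadd45a difference, 0.75 ± 0.36, was past 2 of its scanner errors, a size that 5.65% of the 20489 probes bright in every channel also passed. A difference past 1 error was seen for 8 of the 10 bright probes, against 23.6% of those 20489 probes.

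The largest differences toward wild-type were in Ccng1 (-0.71 ± 0.37) and the shared Cdkn1a probe (-0.68 ± 0.58). Gdf15 followed at -0.51 ± 0.33, Sesn2 at -0.49 ± 0.29, Zmat3 at -0.42 ± 0.37, Sesn1 at -0.41 ± 0.29 and Btg2 at -0.35 ± 0.31. Neighbours in this order lay closer to each other than their errors. Toward AID transgenic, Plk2 stood at 0.38 ± 0.4 and Mdm2 at 0.24 ± 0.32, both within 1 error.

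A difference in ratio can lie in the treated or in the untreated channel. For Cdkn1a the shared probe was lower in treated AID transgenic than treated wild-type liver by a log2 value of -0.68, and the untreated livers differed by -0.01. For Btg2 the reverse held, with -0.01 between treated and 0.34 between untreated livers. Gadd45a combined 0.48 in treated with -0.28 in untreated livers. Between treated livers, 1 of 10 genes differed 2-fold, Ccng1 at -1.01, where 0.761% of 17079 genes were lower and 0.738% higher in AID transgenic mice. Between untreated livers 0 of 10 did, with a range of -0.32 to 0.34, where 0.294% of 14297 genes were lower and 0.308% higher. Channels of separate arrays were compared after quantile adjustment of the average intensities.

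The wild-type channels also differed in sex-linked RNA. Ddx3y and Eif2s3y, which lie on the Y chromosome, were lower in treated wild-type liver by at least 17.6-fold and 32.1-fold, and there they were not well above background. Xist, the RNA of the inactive X chromosome, was at least 10.8-fold and 3.16-fold higher there by its 2 probes. On the AID transgenic array Ddx3y had a ratio of -0.11 and Eif2s3y of -0.05, and Xist stayed near background in both channels. Male-biased liver genes moved with this, with 11 of 12 lower on the wild-type array (median -3.74) and 4 of 12 on the AID transgenic array (median -0.75). Female-biased liver genes were higher for 11 of 11 measured on the wild-type array (median 3.01) and for 1 of 9 on the AID transgenic array (median 0.31). On the wild-type array these differences cannot be told apart from treatment. Between treated livers, and in the differences of the ratios, they cannot be told apart from genotype. Their part in the wild-type ratios and in the genotype differences was not tested.

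The machinery upstream of these targets showed little difference between channels. Of 16 listed p53 regulators and cofactors, 15 were measured and 0 reached 2-fold on either array, with medians of 0.04 in AID transgenic and 0.05 in wild-type liver. On each array Trp63, Trp73, Chek1, Chek2 and Cdkn2a had a probe that was not well above background in some channel. Trp53bp1 did too on the AID transgenic array. A ratio near 0 from such a probe says little about the gene. Trp53, the gene of p53 itself, had a ratio of 0.09 ± 0.28 and -0.07 ± 0.24 on the AID transgenic and wild-type arrays. Mdm4, the partner of Mdm2, had -0.05 ± 0.27 and 0.02 ± 0.25. The widest ratios in the list were Atr, a DNA damage kinase, at 0.52 on the AID transgenic array, and Rchy1, another p53 ubiquitin ligase, at 0.53 on the wild-type array. RNA levels do not show the amount or activity of the p53 protein.

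Other known p53 targets, outside the 10, were at least 2-fold higher for 3 of 26 and lower for 1 in AID transgenic liver (median 0.28). In wild-type liver 7 of 25 were higher and 0 lower (median 0.36). Of all genes, 1.22% were higher and 0.947% lower in AID transgenic liver, and 1.86% and 1.64% in wild-type liver. Ratios of these other targets were above 0 for 21 of the 26 and for 20 of the 25. Phlda3, an inhibitor of the kinase Akt, had 2.42 ± 0.33 on the AID transgenic and 3.65 ± 0.42 on the wild-type array. The death receptor gene Tnfrsf10b had 1.09 ± 0.29 and 2.32 ± 0.38, and the nuclease gene Aen 1.61 ± 0.25 and 1.95 ± 0.28. The 1 that was at least 2-fold lower was Ddit4, an mTORC1 inhibitor that like the sestrins responds to several stresses. It had -1.68 ± 0.26 on the AID transgenic array and 0.1 ± 0.2 on the wild-type array. Untreated AID transgenic liver was above untreated wild-type liver in Ddit4 by a log2 value of 1.29.

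Cyclins, cyclin-dependent kinases and proliferation genes, which p21 acts against, were also higher in part. At least 2-fold higher were 1 of 14 in AID transgenic (median 0.20) and 4 of 14 in wild-type liver (median 0.33), with 0 lower in either. Cyclin D1 (Ccnd1) had 0.82 ± 0.22 on the AID transgenic and 2.78 ± 0.34 on the wild-type array, and the proliferation marker Mki67 had 0.82 ± 0.25 and 1.83 ± 0.32. Cdc20, an activator of the anaphase-promoting complex, had 1.35 ± 0.28 and 2.27 ± 0.36. Their differences between the arrays were -1.96, -1.01 and -0.92, each further from 0 than that of any of the 10 targets. These genes were named by fixed choice or for their wide ratios. Over all 14 measured genes of the list the median difference was -0.25, beside -0.38 for the 10 targets. A difference of 2-fold toward wild-type was reached by 2 of the 14, against 1.05% of all genes.

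Relatives of the targets did not share one direction. Of the other 7 inhibitors of cyclin-dependent kinases, 0 in AID transgenic and 2 in wild-type liver were at least 2-fold higher, Cdkn2c at 1.36 ± 0.28 and Cdkn1c at 1.24 ± 0.25, against 0.42 ± 0.24 and -0.02 ± 0.21 on the AID transgenic array. Cdkn2d, which encodes p19, had 0.18 and 0.23 on the AID transgenic and wild-type arrays. Among 17 measured paralogs of the 10 genes, 1 was higher and 0 lower in AID transgenic liver, and 4 were higher and 2 lower in wild-type liver. Btg3, a relative of Btg2, had 1.72 ± 0.26 on the AID transgenic and 2.3 ± 0.31 on the wild-type array. Gadd45g, a relative of Gadd45a, had -0.71 and -1.12, and Plk3, a relative of Plk2, had -0.13 and -1.09 on those arrays.

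Sesn2 and Gdf15 also answer to the integrated stress response, through the transcription factors ATF4 and CHOP. Of 12 genes of that response, 0 were at least 2-fold higher and 2 lower in AID transgenic liver (median 0.01). In wild-type liver 2 were higher and 2 lower (median 0.12). Ratios were above 0 for 6 of the 12 in AID transgenic and for 7 of the 12 in wild-type liver. The genes named next were chosen for their wide ratios and do not stand for the list. The asparagine synthetase gene Asns had -0.83 ± 0.22 on the AID transgenic and -1.92 ± 0.38 on the wild-type array, and Chac1, which degrades glutathione, had -1.88 ± 0.3 and -1.56 ± 0.28. Trib3, a pseudokinase, had -0.29 ± 0.21 and 1.38 ± 0.24.

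Markers of liver cell types were measured beside these genes, and their part in the ratios was not tested. Albumin (Alb), a defining hepatocyte product, had a level of 17.45 in treated and 17.28 in untreated AID transgenic liver, and 17.58 in treated and 16.98 in untreated wild-type liver. Hepatocyte markers had a median of -0.7 on the AID transgenic and -0.95 on the wild-type array, with 2 of 6 at least 2-fold lower on each. These were the apolipoprotein gene Apoa1 at -1.84 ± 0.27 and -1.79 ± 0.26, and the tyrosine aminotransferase gene Tat at -1.27 ± 0.24 and -1.15 ± 0.23. Macrophage markers had a median of 0.61 in AID transgenic liver, with 1 of 5 at least 2-fold higher, and 0.01 in wild-type liver with 0 of 5. Stellate cell markers had medians of -0.31, with 1 at least 2-fold lower, and -0.1, with 0. Lymphocyte markers had medians of 0.18 and 0.05, endothelial markers 0.03 and -0.16, and cholangiocyte markers -0.31 over 3 genes and 0.14 over 5, on the AID transgenic and wild-type arrays.

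The 2-fold calls of these genes on each array held under other processing, but a larger share of all genes was then also called in some ways. In all 6 ways of computing a ratio, the shared Cdkn1a probe, Mdm2, Ccng1, Gadd45a, Plk2 and Zmat3 were past 2-fold in AID transgenic liver, and the shared Cdkn1a probe, Ccng1, Plk2, Zmat3 and Gdf15 in wild-type liver. The shared Cdkn1a ratio ranged from 2.71 to 3.41 on the AID transgenic and from 3.39 to 4.08 on the wild-type array. Among genes under 2-fold as reported, Gdf15 in AID transgenic liver ranged from 0.91 to 1.59, and in wild-type liver Mdm2 ranged from 0.89 to 1.59, Btg2 from 0.78 to 1.23 and Sesn2 from 0.59 to 1.25. Btg2 passed the threshold with processed signals, the deposited values and median centring. With an offset of 0 it stood at 1 after rounding and was not called. Gdf15, Mdm2 and Sesn2 passed in 1 way each, median centring. With median centring, 7 of the 10 genes were called higher in AID transgenic liver, where 8.14% of all genes were, and 8 of the 10 in wild-type liver, where 10.4% of all genes were. Of all genes, 3.71% in AID transgenic and 4.69% in wild-type liver were called higher with an offset of 0. These shares were 9.09% and 9.46% with processed signals, and 9.15% and 9.51% with the deposited values. They were 1.22% and 1.86% as reported. Of the 10 genes, 6 and 5 were called higher with an offset of 0, and 6 on each array with processed signals or deposited values. Without the normexp offset Gadd45a alone differed 2-fold between the responses, toward AID transgenic, where 2.2% of genes had the higher and 2.95% the lower ratio in AID transgenic mice. Sesn1 turned its sign with median centring in AID transgenic liver, with a range of -0.42 to 0.29.

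**Figure D5:**
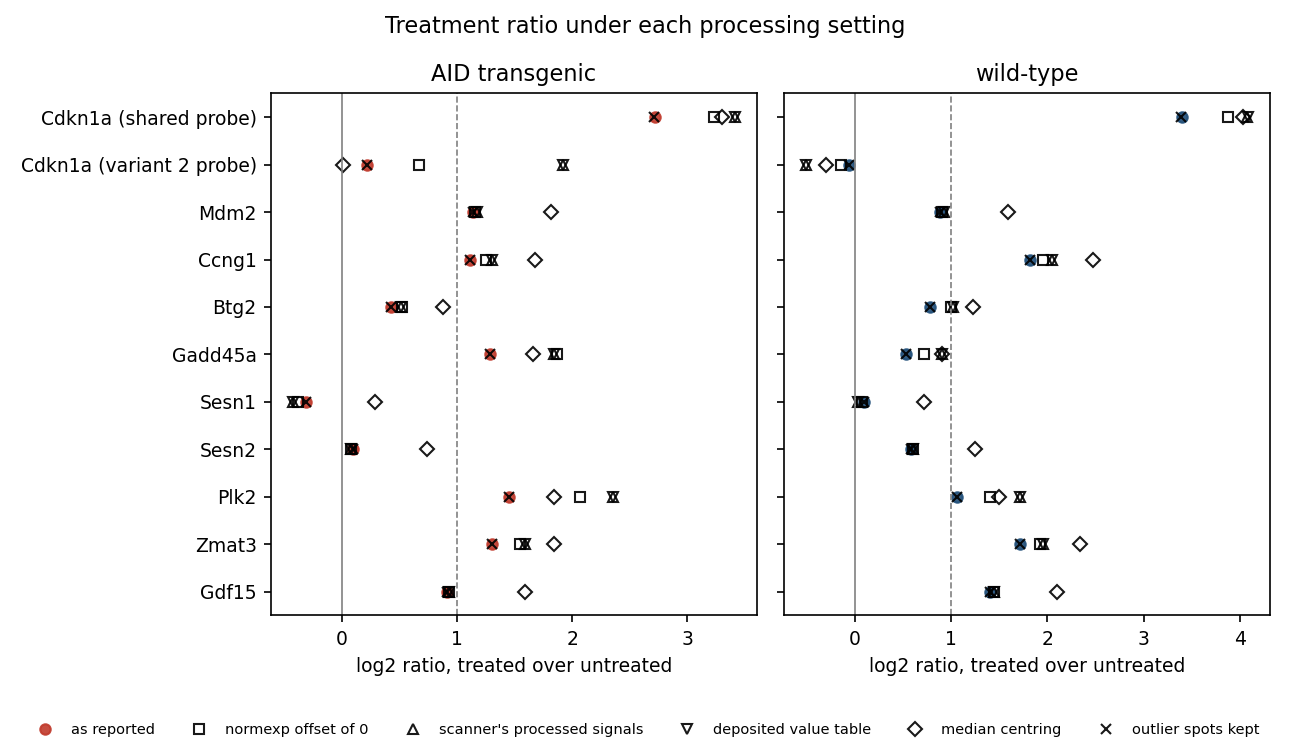
Log2 ratio, treated over untreated, of each of the 11 probes under 6 ways of computing it, on the AID transgenic and wild-type arrays; the dashed line marks 2-fold. Median centring (diamonds) shifts most probes to the right, and the variant 2 Cdkn1a probe spreads from 0.01 to 1.92 on the AID transgenic array.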

How the data were processed

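The authors deposited the scanner output of both arrays. Spot mean signals, local background medians and processed signals are intensity values, per the file headers; the processed signals had been background-subtracted, detrended and dye-normalized by the scanner software. The deposited log ratios are log10 values, Cy5 over Cy3 processed signal, and their deposited error is a score of the software's error model, turned here to log2. The series' deposited table of log10 values equalled that ratio on all 43020 non-control features (tolerance 0), with column medians of 0. The file headers name Feature Extraction 10.7.3.1, whereas the submitters' processing notes name 10.5.1.1.

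Mean signals were corrected by normexp with an offset of 50 in limma 3.58.1 (R 4.3.3), and each array was then loess-normalized, giving control and outlier spots a weight of 0. Control spots were left out, as were the outlier spots (207 on the AID transgenic, 197 on the wild-type array). Aquantile adjustment was used for levels. Spots of a probe were averaged, and a gene is the mean of its probes. A gene entered a comparison where any channel of it held a probe well above background. Names came from RefSeq by accession (26055 probes), symbol (3195) or synonym (930), with no match for 9249. The computation was tested on simulated data.

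The members and gene lists were chosen with earlier results of these data known. Besides the members, the genes named from a list are among the 2 to 4 with the widest ratio on either array of those bright in every channel, plus Trp53, Mdm4, Phlda3, Ccnd1, Mki67, Xist, Ddx3y and Eif2s3y. Alb falls outside this rule and was named, to check the tissue, after its values were seen. Alternatives were an offset of 0, processed signals, median centring, the deposited table, the brightest probe per gene, only bright probes, outlier spots kept, and no adjustment between arrays.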

Additional observations from a re-analysis of the deposited data

Results flagged for a closer look

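The variant 2 probe of Cdkn1a had ratios of opposite sign on the arrays, 0.22 in AID transgenic and -0.06 in wild-type liver. The scanner's own ratios of this probe, with the errors that belong to them, were 1.92 ± 0.67 and -0.5 ± 0.48. Sesn1 also had ratios of opposite sign, with -0.31 in AID transgenic and 0.1 in wild-type liver. With 1 array per genotype neither difference was tested.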

How the results depend on the processing

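No paired analysis was possible because each genotype had 1 array, and for the same reason no replicate could be left out. With median centring the number of the 10 genes at least 2-fold higher in wild-type liver was 8 in place of 5. That setting moved the median of all genes to 0.34 in AID transgenic and 0.35 in wild-type liver, from 0.03 in each, so it shifted genes upward as a whole. With an offset of 0, 1 gene (Gadd45a) differed 2-fold between the genotypes' responses in place of 0. The other counts of the 10 genes were within 1.5 times. Higher genes made up 56.2% of calls in AID transgenic and 53.1% in wild-type liver, 69.7% and 65.8% with an offset of 0, 76.2% and 72.3% with processed signals, 76.6% and 72.5% in the deposited table, and 96.2% and 94.4% with median centring. Without adjustment between arrays the median of all genes was -0.11 between treated and -0.13 between untreated livers. Of 110 probe values under the alternatives, 43 moved by more than the scanner error. Signal over background limits the variant 2 probe of Cdkn1a.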
